A study of Mus musculus with 6 samples.

Results

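The enzymes that make thymidylate and the other deoxynucleotides were examined in B16F10 mouse melanoma cells depleted of OSGEP. The group was defined by gene symbol, with earlier results of these data known. It held 8 genes, Tyms, Rrm1, Rrm2, Rrm2b, Tk1, Dut, Dctd and Dck, out of 55487 genes listed. All 8 were expressed highly enough to be among the 12669 genes tested. Shares over all genes set beside counts of this group are therefore a description and not a test of it. Control cells carried a scramble shRNA (shCtr, n = 3) and depleted cells carried the shRNA numbered 2 against OSGEP (shOSGEP, n = 3), OSGEP being the catalytic subunit of the KEOPS complex that places t6A on tRNAs. The libraries came from 3 separate lentiviral infections followed by selection in puromycin, so both groups shared the virus and the drug, and a single hairpin stood for the depletion. PolyA RNA was sequenced, and the libraries held from 18915587 to 29487384 counts.

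DNA synthesis needs a balanced supply of deoxynucleotides. Ribonucleotide reductase makes them from ribonucleotides, with a large subunit encoded by Rrm1 and a small subunit encoded either by Rrm2, which is produced mainly in S phase, or by Rrm2b, a p53 target that serves resting and damaged cells. Thymidylate synthase (Tyms) converts dUMP to dTMP, dUTPase (Dut) and dCMP deaminase (Dctd) provide the dUMP, and thymidine kinase 1 (Tk1) and deoxycytidine kinase (Dck) recover nucleosides. Most of these genes are read by E2F factors and are higher in dividing cells.

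In the shOSGEP libraries 7 of the 8 enzyme mRNAs had a lower fitted level, against 52.7% of all genes, and Rrm2b had a higher one, against 47.3% of all genes. The lowest Log2FC values were those of Tk1 (-1.33), Dut (-1.26) and Tyms (-1.16), followed by Rrm1 (-0.90) and Rrm2 (-0.54), whereas Dctd (-0.28) and Dck (-0.20) were nearer to 0 and Rrm2b stood at 1.30. The median over the 8 was -0.72, beside -0.03 over all genes tested, and it was -0.38 without shOSGEP replicate 2 and -0.26 without both replicate 2 libraries. By the edgeR quasi-likelihood model, adjusted p was 1.00 for each of the 8 and under 0.05 for none of the 12669 genes (0%), although 256 genes had an unadjusted p under 0.05. At the threshold of the study, an unadjusted p under 0.05 with a Log2FC beyond 0.5, Dut and Tyms passed, or 2 of 8, against 2.02% of all genes. Both were lower, against 0.426% of all genes, and none was higher, against 1.59%. With the replicate number as a block Tyms no longer passed (unadjusted p = 0.0570 in edgeR). Bulk RNA cannot tell a smaller share of S-phase cells from less mRNA per cell.

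Before the single genes, the libraries were checked. Osgep was at 20.6 to 58.6 CPM (counts relative to the TMM-scaled library size) in shCtr and at 0.542 to 5.52 CPM in shOSGEP, in the direction of the labels. Its fitted Log2FC was -3.29 (SE 0.876, unadjusted p = 0.00524 in edgeR), with an adjusted p of 0.9997. The fit therefore did not call even the depleted gene after adjustment, and a high adjusted p here does not show absence of change. The 10 melanocyte markers summed to between 22905 and 41839 CPM in 5 libraries and to 6180 CPM in shOSGEP replicate 2. Of 14 markers of other cell types 7 were at 0 counts in every library, among them Ptprc, Cd3e, Adgre1 and Cdh5, and all 14 summed to at most 10.9 CPM. Deviations of each library's log2 CPM from the mean over the 6 libraries were fitted with trends on GC content and length. These trends held 59.9% of the variance of the deviations in shCtr replicate 2 and 48.2% and 50.9% in the replicate 1 libraries. They held at most 22.3% in the other 3, of which shOSGEP replicate 2 had the lowest. Between the replicate 2 libraries the median log2 ratio was 1.84 for transcripts under 40% GC and -0.97 for those over 55% GC, against 0.01 and -0.07 between the replicate 1 libraries. The TMM factor was 0.690 for shCtr replicate 2 and 1.04 to 1.14 for the other 5 libraries. Mitochondrial counts made up 0.585% of shCtr replicate 2 and 1.30% to 4.75% of the others. Its log2 CPM correlated at 0.750 to 0.873 with the other libraries, whereas the replicate 1 and 3 libraries correlated at 0.953 to 0.986 with one another. Values are given for every library, and the fitted Log2FC also without both replicate 2 libraries.

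Sequence ahead of the start sites was read for the members because these genes are commonly described as a co-regulated set. The RefSeq table of promoter windows on GRCm38.p6, from 250 bases before to 50 bases after a start, held 7 of the 8 enzymes. Searched on both strands were the E2F words TTCCCGC and TTGGCGC, the NF-Y word CCAAT, the cell cycle homology word TTTGAA and the GC box word GGGCGG, of which none overlaps another in the stretches shown. The 100 bases before the start are printed for Rrm1 and Rrm2, which encode the partners of the S-phase enzyme, and for Tyms and Dut, the genes past the threshold of the study. E2F and CCAAT words are in capitals. The start of Dut in the RefSeq table lies inside the gene span of the annotation given for Dut, so its stretch is not upstream of the whole gene, and the last bases of the Rrm2 stretch also fall inside the annotated span.

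Rrm1, chr7:102441595-102441694 (+): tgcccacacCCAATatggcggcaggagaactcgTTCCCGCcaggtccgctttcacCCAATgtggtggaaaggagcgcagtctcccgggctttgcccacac
Rrm2, chr12:24708154-24708253 (+): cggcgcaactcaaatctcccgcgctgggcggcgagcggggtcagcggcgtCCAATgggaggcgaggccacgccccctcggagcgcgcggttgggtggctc
Tyms, chr5:30073626-30073725 (-): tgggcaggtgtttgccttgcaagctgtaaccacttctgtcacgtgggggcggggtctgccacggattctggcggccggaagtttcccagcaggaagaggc
Dut, chr2:125247415-125247514 (+): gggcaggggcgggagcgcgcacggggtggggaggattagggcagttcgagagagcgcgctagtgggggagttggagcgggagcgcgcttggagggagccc

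Rrm1 held an E2F word at position -67 from the start and CCAAT at -91 and -45, and Rrm2 held CCAAT at -50. Neither E2F word was found in the windows of the other 6 enzymes with an entry, and CCAAT occurred further only in 2 of the 3 windows of Dctd. The GC box word was present in the windows of Tyms, Rrm2, Tk1, Dut, Dck and Dctd, and TTTGAA in that of Dck. The windows counted for background left out a chromosome that holds no member. Among these 32851 windows 6.81% held an E2F word, 37.4% CCAAT, 35.7% the GC box word and 17.9% TTTGAA. These words are a description of the windows.

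Ribonucleotide reductase was examined first. Rrm1 (chromosome 7, 102441695 to 102469771, plus strand, GRCm38), the large subunit, had levels of 410, 602 and 588 CPM among the shCtr libraries, beside 296, 147 and 417 CPM among those of shOSGEP, in order of replicate number. The highest shOSGEP library lay just above the lowest shCtr library, so the groups overlapped, but each shOSGEP library was below the shCtr library of its own number. The means were 533 ± 107 and 287 ± 136 CPM (SD, n = 3), and the fitted Log2FC was -0.90 (SE 0.490, unadjusted p = 0.104 in edgeR). It was -0.56 without shOSGEP replicate 2 and -0.48 without both replicate 2 libraries.

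Rrm2 (chromosome 12, 24708241 to 24714146, plus strand), the S-phase small subunit, had levels of 229, 233 and 329 CPM among the shCtr libraries, beside 192, 91.5 and 262 CPM among those of shOSGEP. The shOSGEP replicates 1 and 2 lay below the shCtr range, while shOSGEP replicate 3 was inside it. The means were 264 ± 56.6 and 182 ± 85.9 CPM (SD, n = 3) and the Log2FC was -0.54 (SE 0.479, unadjusted p = 0.295 in edgeR). Without shOSGEP replicate 2 it was -0.20, and without both replicate 2 libraries -0.29.

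Rrm2b (chromosome 15, 37923952 to 37961318, minus strand), the alternative small subunit, went the other way. Its levels were 19.5, 0.983 and 11.3 CPM among the shCtr libraries (458, 20 and 244 counts), beside 37.0, 21.9 and 19.1 CPM among those of shOSGEP (796, 564 and 450 counts). Each shOSGEP library exceeded the shCtr library of its number, and the single overlap was between shOSGEP replicate 3 and shCtr replicate 1. The means were 10.6 ± 9.26 and 26.0 ± 9.66 CPM (SD, n = 3), and the fitted Log2FC was 1.30 (SE 0.877, unadjusted p = 0.176 in edgeR). The very low value in shCtr replicate 2 weighed on both the mean and the spread: without that library the Log2FC was 0.75 (SE 0.449), and without both replicate 2 libraries 0.87 (SE 0.440). Rrm2b also had the lowest GC content of the 8 transcripts, 39.4%, in the class whose median log2 ratio between the replicate 2 libraries was 1.84, and its own ratio there was 4.47.

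In thymidylate synthesis, Tyms (chromosome 5, 30058202 to 30073617, minus strand) had levels of 91.4, 215 and 96.8 CPM among the shCtr libraries, beside 56.6, 46.7 and 77.3 CPM among those of shOSGEP. Every shOSGEP library was below every shCtr library. The means were 134 ± 69.9 and 60.2 ± 15.6 CPM (SD, n = 3), the Log2FC was -1.16 (SE 0.481) and the unadjusted p was 0.0416 in edgeR. Most of the shCtr spread was shCtr replicate 2, and without that library the Log2FC was -0.64 (unadjusted p = 0.119 in edgeR). It was -0.49 without both replicate 2 libraries, and -1.06 with the replicate block (unadjusted p = 0.0570 in edgeR).

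Dut (chromosome 2, 125247190 to 125258608, plus strand), which clears dUTP and yields dUMP, had levels of 99.8, 190 and 102 CPM among the shCtr libraries, beside 52.4, 31.7 and 78.6 CPM among those of shOSGEP, again without overlap. The means were 130 ± 51.4 and 54.3 ± 23.5 CPM (SD, n = 3), and the Log2FC was -1.26 (SE 0.494, unadjusted p = 0.0327 in edgeR). Dut was the enzyme with the smallest unadjusted p, and without shCtr replicate 2 its Log2FC was -0.89 (unadjusted p = 0.0767 in edgeR). Without both replicate 2 libraries it was -0.61. Its nuclear and mitochondrial isoforms are joined in the counts per gene.

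Dctd (chromosome 8, 48099092 to 48153233, plus strand), the other source of dUMP, had levels of 27.4, 31.4 and 24.2 CPM among the shCtr libraries, beside 26.2, 17.3 and 24.7 CPM among those of shOSGEP. The groups overlapped, and in replicate 3 the shOSGEP library was marginally the higher of the pair. Its Log2FC was -0.28 (SE 0.403, unadjusted p = 0.499 in edgeR), and it was -0.02 without both replicate 2 libraries.

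The salvage kinases followed. Tk1 (chromosome 11, 117815526 to 117826092, minus strand), which phosphorylates thymidine in S phase, had levels of 162, 682 and 239 CPM among the shCtr libraries, beside 123, 92.7 and 216 CPM among those of shOSGEP. One control library, shCtr replicate 2, was far above the other 5, and the other shCtr libraries straddled shOSGEP replicate 3. The means were 361 ± 281 and 144 ± 64.4 CPM (SD, n = 3), and the fitted Log2FC was -1.33 (SE 0.629, unadjusted p = 0.0669 in edgeR). Without shCtr replicate 2 the Log2FC was -0.48, and without both replicate 2 libraries it was -0.24, the largest dependence on these libraries among the 8.

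Dck (chromosome 5, 88764996 to 88783281, plus strand), which phosphorylates deoxycytidine and the purine deoxynucleosides, had levels of 39.4, 14.7 and 40.7 CPM among the shCtr libraries, beside 33.3, 14.2 and 35.0 CPM among those of shOSGEP. Both replicate 2 libraries were low and the groups overlapped over nearly their whole range. Its Log2FC was -0.20 (SE 0.557, unadjusted p = 0.729 in edgeR), and it was 0.03 without shCtr replicate 3 and 0.12 without shOSGEP replicate 2. Without both replicate 2 libraries it was -0.23, beside -0.24 for Tk1.

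**Figure D1:**
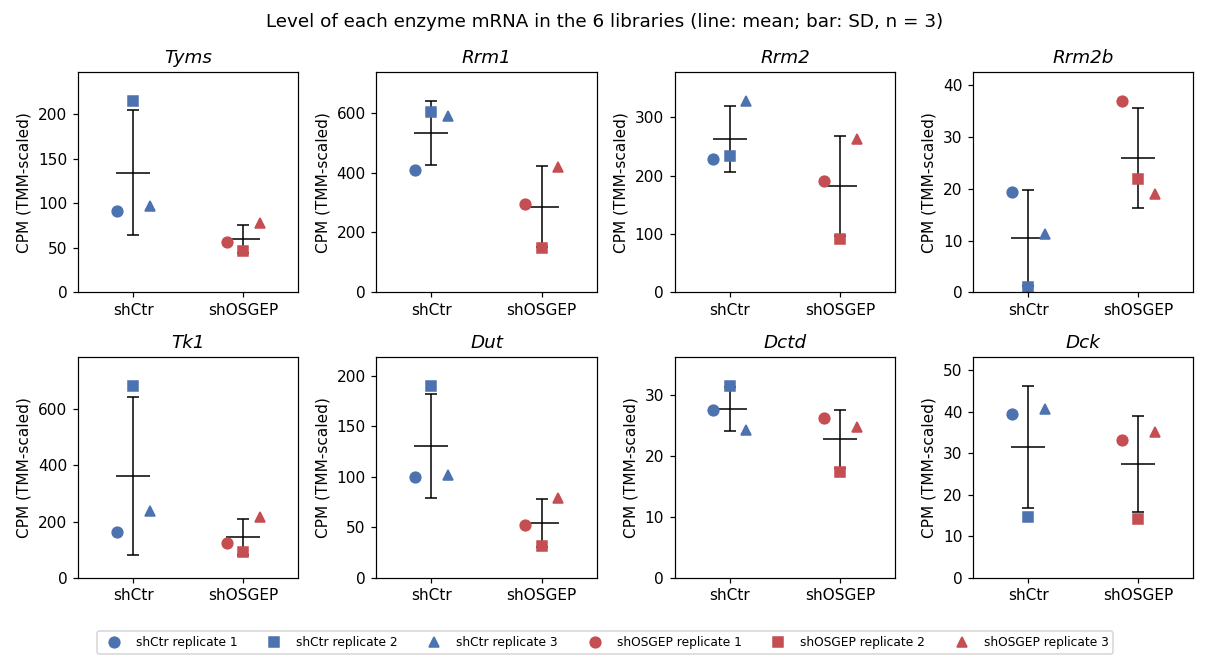
Level of each of the 8 enzyme mRNAs in CPM after TMM scaling (vertical axes, each from 0) in the 3 shCtr and 3 shOSGEP libraries, with symbols for the replicate number, lines for group means and bars for SD. Tyms and Dut are the 2 genes whose groups do not overlap, and the replicate 2 libraries (squares) lie at the edges of most panels.

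Groups did not overlap for 2 of the 8 enzymes, Tyms and Dut, both lower in shOSGEP, against 2.87% of all genes in that direction, 3.49% in the other and 6.36% in either. Permuting the library labels exactly gave p = 0.1 for each of them on log2 CPM, the smallest two-sided p that 3 libraries against 3 allow, and p = 0.2 to 0.5 for the other 6. Summed over the 8, the level was 1078, 1970 and 1431 CPM in shCtr and 817, 463 and 1131 CPM in shOSGEP, lower in shOSGEP within each number but overlapping between groups.

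Within replicate numbers the direction was steadier than the size. All 3 same-numbered comparisons were lower for Tyms, Rrm1, Rrm2, Tk1, Dut and Dck, or 6 of 8 against 17.2% of all genes, and all 3 were higher for Rrm2b, against 17.6% of all genes. That makes 7 of 8 with a single direction, against 34.8% of all genes. The log2 ratios of Rrm1 were -0.47, -2.04 and -0.50 in replicates 1, 2 and 3, and those of Dut were -0.93, -2.58 and -0.37. Those of Tyms were -0.69, -2.20 and -0.33, and those of Rrm2b were 0.93, 4.47 and 0.76. In replicates 1 and 3 no ratio of the 8 enzymes went beyond 1 in size, and replicate 2 gave the largest ratio for every enzyme but Dck. Over the 8 enzymes the median log2 ratio was -0.33, -1.69 and -0.27, whereas over all genes it was -0.03, 0.11 and -0.01.

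**Figure D2:**
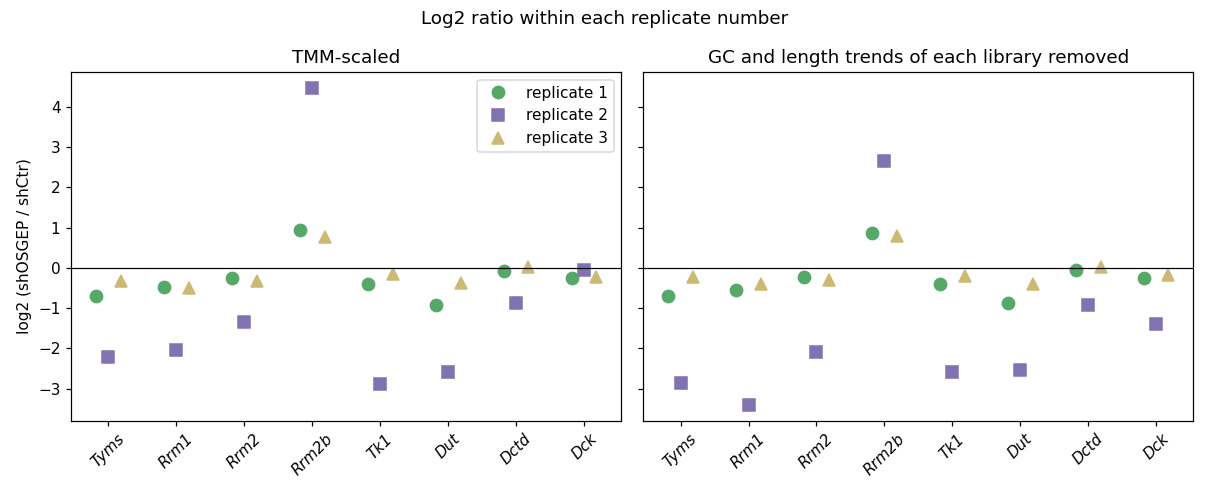
Log2 ratio of shOSGEP to shCtr within each replicate number (vertical axis) for the 8 enzymes, from TMM-scaled values (left) and after removal of each library's trend on GC content and length (right). In both panels all 3 points of Rrm2b lie above 0 and all 3 points of Tyms, Rrm1, Rrm2, Tk1, Dut and Dck lie below it, with replicate 2 (squares) farthest from 0 except for Dck at left.

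Since the replicate 2 ratio varied with GC content, the members were also read after removal of each library's trend on GC content and length. The transcripts ranged from 39.4% GC for Rrm2b and 42.9% for Dck to 50.2% for Dut and 51.9% for Tk1. The medians between the replicate 2 libraries were 1.48 for 40 to 45% GC, 0.44 for 45 to 50% GC and -0.47 for 50 to 55% GC. Rrm1, at 43.3% GC and a ratio of -2.04, was opposite in sign to the median of its class. So were Tyms, at 46.7% GC and a ratio of -2.20, and Rrm2, Dctd and Dck. Dut, with a ratio of -2.58, and Tk1, with -2.88, had the sign of their class, as did Rrm2b. After removal the replicate 2 ratio of Rrm2b was 2.65 in place of 4.47, that of Rrm1 -3.40 and that of Dck -1.40, while the ratios of replicates 1 and 3 moved less. After removal the groups of Rrm2b no longer overlapped, with shOSGEP higher (against 6.27% of all genes), those of Dut stayed apart, with shOSGEP lower (against 5.83%), and those of Tyms overlapped. Without overlap in either direction were 12.1% of all genes. With these trends as offsets in edgeR the Log2FC was 1.38 for Rrm2b (SE 0.398, unadjusted p = 0.00903), -1.85 for Rrm1 (SE 0.724, unadjusted p = 0.0352) and -1.54 for Tyms (SE 0.586, unadjusted p = 0.0313). Together with Dut 4 enzymes then passed the threshold of the study, where 5% of all genes did, and the smallest adjusted p among the 8 was 0.850. With the replicate block added to the offsets 2 passed, Rrm2b (Log2FC 1.37) and Dut (-1.26), where 6.5% of all genes did.

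The 2 small subunits can be set against each other inside a library, which needs no scaling between libraries. The comparison still carries each library's GC trend, as Rrm2b was at 39.4% GC and Rrm2 at 46.0%. After removal of the trends the log2 ratio between the replicate 2 libraries was 2.65 for Rrm2b and -2.10 for Rrm2, beside 4.47 and -1.35 before. The values below are without that removal. Per base of exon, Rrm2b made up 2.52%, 0.128% and 1.03% of the small-subunit mRNA (Rrm2 plus Rrm2b) in shCtr and 5.53%, 6.76% and 2.16% in shOSGEP. Rrm2 was therefore by far the more abundant small-subunit mRNA in every library, and the share of Rrm2b was higher in shOSGEP in 3 of 3 same-numbered comparisons. Only shOSGEP replicate 3 and shCtr replicate 1 overlapped. The log2 ratio of Rrm2b to Rrm2 was -7.16 ± 2.22 in shCtr and -4.46 ± 0.915 in shOSGEP (SD, n = 3), a difference of 2.70. The difference was 1.18, 5.83 and 1.09 within replicates 1, 2 and 3, and 1.14 without replicate 2. The log2 ratio of Rrm2 to Rrm1 moved less, from 0.97 ± 0.304 to 1.33 ± 0.0289 (SD, n = 3), also higher in shOSGEP within each number.

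**Figure D3:**
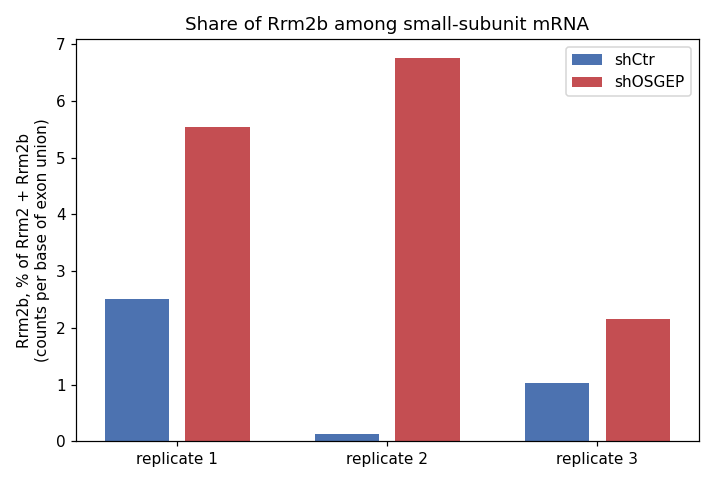
Share of Rrm2b in the summed Rrm2 and Rrm2b mRNA, in percent of counts per base of exon union (vertical axis from 0), for each library by replicate number. The shOSGEP bar is higher than the shCtr bar in each of the 3 pairs, 5.53% against 2.52%, 6.76% against 0.128% and 2.16% against 1.03%.

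Levels of different enzymes were compared per kilobase. With the exon union of each gene as length, the shCtr means were 95.1 for Rrm2, 69.5 for Tk1, 54.1 for Dut, 48.4 for Rrm1, 22.1 for Tyms, 8.35 for Dck, 8.12 for Dctd and 1.16 for Rrm2b, in CPM per kilobase. Tk1 held its place through shCtr replicate 2, at 131 CPM per kilobase beside 31.2 and 46.1 in replicates 1 and 3, and its range over the shCtr libraries overlapped those of Rrm2, Dut and Rrm1. The ranges of Dut and Rrm1 overlapped, as did those of Dck and Dctd, whereas Tyms lay below Rrm1 and above Dck, and Rrm2b below Dctd, in every shCtr library. In shOSGEP the order was Rrm2 (65.6), Tk1 (27.7), Rrm1 (26.0), Dut (22.5), Tyms (9.89), Dck (7.28), Dctd (6.67) and Rrm2b (2.85). With the longest transcript as length Tk1 ranked above Rrm2 in shCtr. In shOSGEP replicate 2 Rrm2b (4.79) then ranked above Dck (4.61), so the order depends on the length used.

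Profiles over the 6 libraries were compared between members. Pearson correlations of log2 CPM, over 6 libraries that share GC and depth differences, were 0.97 between Tyms and Tk1, 0.96 between Tyms and Dut, and 0.94 between Rrm1 and Rrm2. Rrm2b ran opposite to Tyms (-0.92) and Tk1 (-0.93), and Dck stood apart from Tyms (-0.16). Among 10250 other genes with a mean of at least 100 counts, the profiles most like that of Tyms were those of Xpc, Unc119b and Csad (0.995 to 0.997). Those most like Rrm2 were Dnmt1, Ipo5 and Ago1 (0.996 to 0.999). Those most like Rrm2b were Tsc22d2, Cdk15 and Gask1b (0.998 to 1.00). These are the highest of 10250 values over only 6 libraries, where values near 1 are easily reached, and shared regulation was not tested.

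Since t6A is carried by tRNAs that read codons starting with A (ANN codons), the coding sequences were counted for such codons. The share was 37.5% in Dctd, 33.2% in Rrm1, 30.0% in Dck, 29.2% in both Rrm2 and Tk1, 27.4% in Rrm2b, 24.8% in Tyms and 20.0% in Dut. The median over 21584 protein-coding genes was 27.7%, with 10% of genes below 20.3% and 10% above 33.5%. Dctd exceeded 97.6% of genes and Dut exceeded 9.1%. The 2 enzymes past the threshold of the study, Dut and Tyms, had the lowest shares of the 8. A link between this share and the mRNA level was not tested. Counts of mRNA carry no measure of translation.

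**Figure D4:**
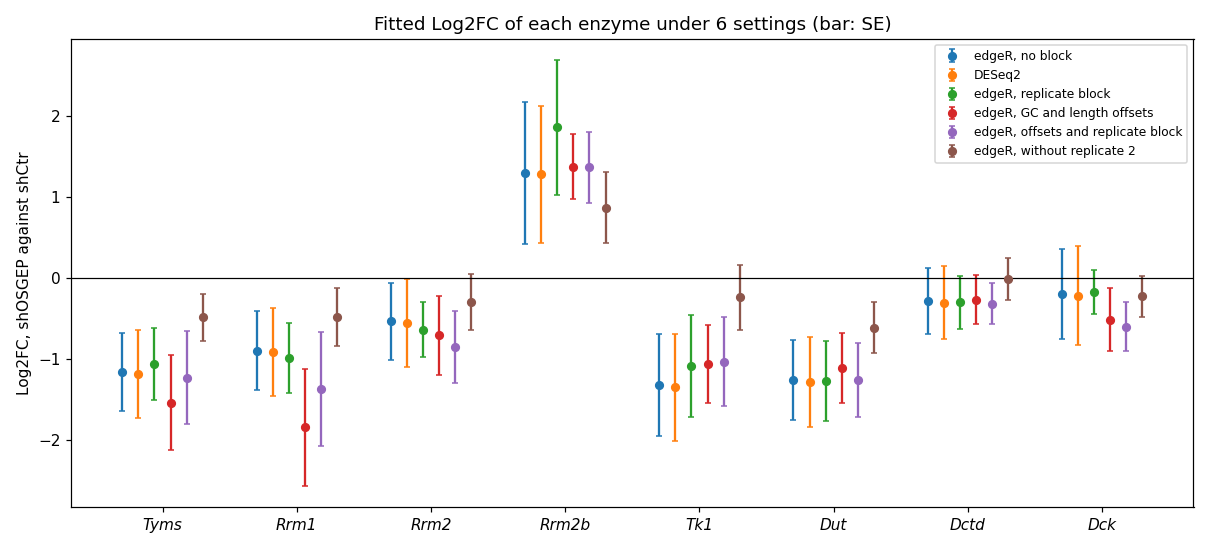
Fitted Log2FC of shOSGEP against shCtr (vertical axis) with its SE for the 8 enzymes, in edgeR without a block, DESeq2, edgeR with a replicate block, edgeR with GC and length offsets with and without the block, and edgeR without the replicate 2 libraries. Every point of Rrm2b lies above 0 and every point of the other 7 below it, and without replicate 2 all but Dck are nearer to 0, as for Tk1 at -0.24 against -1.33.

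The calls depended on the libraries. The 2 enzymes past the threshold of the study became 0 without shCtr replicate 2, shOSGEP replicate 1, shOSGEP replicate 2 or any same-numbered pair. They became 1, Dut, without shCtr replicate 3 or shOSGEP replicate 3, and 3 without shCtr replicate 1, which added Tk1. With the replicate number as a block only Dut passed (Log2FC -1.27, SE 0.494, unadjusted p = 0.0449 in edgeR), where 2.94% of all genes did. With quality weights per library and the same block, limma-voom passed 4 enzymes at an adjusted p under 0.05, where 11.1% of all genes passed: Rrm2b (Log2FC 0.92, adjusted p = 1.1e-06), Dut (-0.79, adjusted p = 1.96e-06), Tyms (-0.61, adjusted p = 0.000546) and Rrm1 (-0.50, adjusted p = 0.011). That fit gave the replicate 2 libraries weights of 0.112 and 0.113 against 1.91 to 4.60 for the others, with a prior of 902.5 degrees of freedom beside 2 residual ones. DESeq2 passed 0 of the 8 and 0.111% of all genes at an adjusted p under 0.05.

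Other genes of the pathway were read from lists. Of 23 further deoxynucleotide enzymes 21 were tested, 15 lower and 6 higher in shOSGEP, with a median Log2FC of -0.39, and none passed the threshold of the study. Lowest in unadjusted p were Cda, which deaminates cytidine (Log2FC -1.64, SE 0.811), and Dctpp1, which hydrolyses dCTP (-1.46, SE 0.755). Both were highest in shCtr replicate 2, at 6.54 CPM for Cda and 352 CPM for Dctpp1, where the remaining shCtr libraries had at most 1.61 and 67.1 CPM. Without the replicate 2 libraries the list had 11 lower and 10 higher genes and a median of -0.04, where all genes tested had 6533 lower and 6324 higher. The 6 redox partners and regulators of ribonucleotide reductase were 5 lower and 1 higher with a median of -0.12, and 0 passed. Lowest in unadjusted p were Ccnf (Log2FC -1.04, SE 0.538), the ubiquitin ligase subunit that targets RRM2, and Glrx (-0.29, SE 0.494).

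Ribonucleotide synthesis, which supplies the reductase, was read next. All 7 pyrimidine enzymes had a Log2FC below 0 (median -0.48), where 52.7% of all genes did. Lowest in unadjusted p were Uck2 (Log2FC -0.73, SE 0.415) and Uck1 (-1.04, SE 0.643), kinases of the uridine salvage route. Of 15 genes of purine synthesis and salvage, 12 had a Log2FC below 0 (median -0.36), and lowest in unadjusted p were Adssl1 (-0.87, SE 0.549) and Impdh2 (-0.75, SE 0.505). None of these 22 genes passed the threshold of the study. Without the replicate 2 libraries the medians were -0.21 and -0.12, with 6 of 7 and 13 of 15 genes lower. In those libraries 6533 of all 12857 genes tested were lower.

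Cell cycle genes are given beside the enzymes. Of 18 S-phase markers 16 were lower, with a median Log2FC of -0.88, and 1 passed the threshold of the study, Ung, the uracil-DNA glycosylase (Log2FC -1.20, SE 0.518), followed by Chaf1b (-1.45, SE 0.666). Of 12 markers of mitosis all 12 were lower, with a median of -0.95, and 1 passed, Birc5 (-1.10, SE 0.449), followed by Cdc20 (-1.36, SE 0.619). Pcna and Mki67 had Log2FC of -0.28 and -0.29. Without the replicate 2 libraries all 18 and all 12 were lower, with medians of -0.35 and -0.33, beside the -0.26 of the 8 enzymes in the same libraries. In those libraries 6533 of all 12857 genes tested were lower, with a median of -0.01. Of 11 E2F and partner genes 10 were lower with a median of -0.35 and 0 passed, led by E2f2 (-1.53, SE 0.736) and E2f4 (-0.70, SE 0.395). The part of cell cycle state in the enzyme values was not tested.

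Rrm2b was set beside other p53 targets. Of 12 genes, Trp53 included, 5 were higher and 7 lower, with a median of -0.14, and 0 passed the threshold of the study. Lowest in unadjusted p were Sesn2 (Log2FC 0.58, SE 0.429) and Mdm2 (0.79, SE 0.703), both higher in 3 of 3 same-numbered comparisons. Mdm2, like Rrm2b, was low in shCtr replicate 2, at 13.0 CPM, with 121 and 74.8 CPM in replicates 1 and 3. Without the replicate 2 libraries 11 of the 12 were higher, with a median of 0.25, where Rrm2b had a Log2FC of 0.87 (SE 0.440, unadjusted p = 0.0973 in edgeR). Of all 12857 genes tested in those libraries, 6324 were higher, with a median of -0.01.

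**Figure D5:**
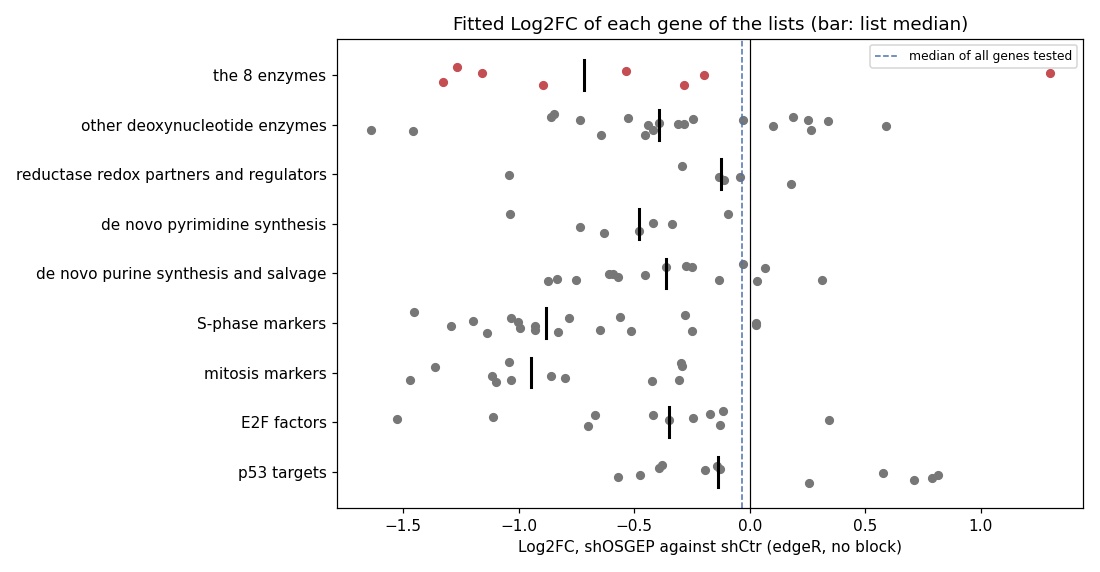
Fitted Log2FC of shOSGEP against shCtr (horizontal axis, edgeR without a block) for every tested gene of the 8 enzymes (red) and of 8 related lists (grey), with black bars for list medians and a dashed line for the median of all genes tested, -0.03. Rrm2b at 1.30 is the highest point shown, and the medians of S-phase markers (-0.88) and mitosis markers (-0.95) lie lower than that of the enzymes (-0.72).

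Some members share sequence or space with other genes. Of the 31-base words of Tyms 9.82% occur in some other gene, of Rrm2b 7.19% and of Rrm2 11.98%. The largest share with a single gene was 5.23% of the Tyms words in the pseudogene Tyms-ps, 4.79% of those of Rrm2b in Gm8616 and 4.45% of those of Rrm2 in Gm48455. These pseudogenes had at most 2, 2 and 1 counts in any library. Genes with more counts, named after their values were seen, share fewer words, 2.05% of the Tyms words in Wdr59 (573 to 747 counts) and 0.76% of the Rrm2b words in Exosc2 (1166 to 5044 counts), so a part of these counts is uncertain. Dut shared no such word with another gene. Tk1 overlaps Afmid on the opposite strand by 169 bases, and Afmid had up to 633 counts, so a small part of the Tk1 counts is uncertain as the kit was not stated to keep the strand. Rrm2b overlaps Gm3362 and Gm49085, which had at most 16 and 4 counts. Tk1 also lies inside the span of Gm20708 on the opposite strand, and Rrm1 overlaps Gm45399. These had at most 6 and 5 counts.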

How the data were processed

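PolyA RNA from 3 libraries per group, of 3 separate infections, was sequenced as paired reads of 100 bases. Per the methods, the authors trimmed reads with TrimGalore, aligned them to GRCm38 with STAR 2.6.1d and quantified genes with Salmon 1.4.0. The values deposited by the authors are estimated counts for each Ensembl gene as whole numbers, not normalized; the annotation release is not given in the sources used here. Salmon divides reads shared by near-identical genes.

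Groups and replicate numbers came from the labels. The filter filterByExpr used a count of 10 and a total of 15 as minimum. After TMM scaling, edgeR 4.0.16 (R 4.3.3) fitted a quasi-likelihood model with no block. Tests were two-sided and adjusted by Benjamini-Hochberg over 12669 genes. The SE is the Log2FC divided by the square root of F. Depth was 18915587 to 29487384 counts per library; 3 counts equal 0.116 to 0.147 CPM, and this covers counting error only. The extraction protocol names 3 independent infections but no label ties them to the replicate numbers, and p-values measure only the spread between these libraries. Positions, lengths and GC came from GENCODE M21 (GRCm38), which held 99.5% of the identifiers. Trends on GC and log length were natural splines of 5 degrees of freedom each, fitted per library to deviations of log2 CPM (prior count 2).

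The members, gene lists and tests were chosen with earlier results of these data known. Named were the 8 members, Osgep, the 2 genes of lowest p per list, Pcna, Mki67, the 3 genes most like Tyms, Rrm2 and Rrm2b in profile, and overlapping genes or pseudogenes of members. Alternatives were DESeq2 1.42.0, limma-voom 3.58.1 with sample quality weights, other scalings and filters, offsets for GC and length, a replicate block and left-out libraries. Deviations of same-numbered libraries from their group means correlated at 0.81, 0.56 and 0.20 across genes for replicates 1, 2 and 3, all above 0.1, and the numbers were taken to pair the libraries. Among unlike numbers shCtr replicate 3 and shOSGEP replicate 1 correlated at 0.49, and shCtr replicate 2 and shOSGEP replicate 3 at 0.14. These values alone therefore do not establish the pairing. The fits were also run on simulated counts, with less spread between libraries than here and without trends on GC or length. That run therefore does not show how they perform on these libraries.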

Additional observations from a re-analysis of the deposited data

How the results depend on the processing

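Leaving out both replicate 2 libraries for the gene lists and for the Rrm2b to Rrm2 ratio was chosen after seeing the data. The direction of Tyms, Rrm1, Rrm2, Rrm2b, Tk1, Dut and Dctd held under all 19 alternatives, with Log2FC ranges of -1.58 to -0.49, -1.85 to -0.48, -0.90 to -0.20, 0.75 to 2.08, -1.98 to -0.24, -1.79 to -0.61 and -0.44 to -0.02; Dck ranged from -0.54 to 0.12 without single libraries or pairs and reversed without shCtr replicate 3 (0.03) and without shOSGEP replicate 2 (0.12). Enzymes past the study threshold numbered 2, and 1 with upper-quartile scaling, 1 with the replicate block, 4 with GC and length offsets, 4 with limma-voom weights and block, 3 with DESeq2 and 3 with no filter (Tyms, Tk1 and Dut in both), 3 with limma-voom weights (Rrm1, Rrm2b and Dut), and 0 to 3 without single libraries or pairs. Enzymes with an adjusted p under 0.05 numbered 0, and 4 with limma-voom weights and block. Genes with an adjusted p under 0.05 numbered 0, and 14 with DESeq2, 3 with limma-voom weights and 1403 with weights and block. Genes past the study threshold numbered 256 (202 higher, 54 lower), and 560 with limma-voom weights (424 and 136), 1442 with weights and block (945 and 497), 599 with no filter (430 and 169; 21821 genes tested), 634 with offsets (431 and 203), 823 with offsets and block (477 and 346), and 67 to 453 without single libraries or pairs; DESeq2 gave 250 higher and 120 lower. In edgeR without offsets the replicate block ended the call of Tyms and changed no other call among the enzymes, with offsets it ended those of Tyms and Rrm1, and in limma-voom with weights it added that of Tyms. The median over all genes was 0.10 higher with upper-quartile scaling. The difference in the log2 ratio of Rrm2b to Rrm2 ranged from 1.14 to 3.64. The cause of these changes was not tested. Only 20 counts of Rrm2b in shCtr replicate 2 limit its fold change.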
